A study of Mus musculus with 12 samples.

Results

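The gene set described here holds 10 genes of Notch signalling in mouse: the ligands *Dll1*, *Dll3* and *Jag1*, the receptors *Notch1* and *Notch2*, the fringe enzyme *Mfng*, and the transcription factors *Hes1*, *Hes5*, *Hes6* and *Hey1*. They were taken by symbol from the 27998 genes of the single-cell files and by Entrez identifier from the 40814 genes of a bulk count table, and all 10 were found in both. A list of 43 other genes of the pathway was found in full in the single-cell files and is described after them. Notch is a receptor on the surface of a cell, bound by ligands on its neighbours. Binding leads to cleavage of the receptor by ADAM proteases and γ-secretase, and the freed intracellular domain acts with RBPJ in the nucleus to switch on *Hes* and *Hey* genes, which encode repressors of proneural genes. In the forebrain, and in the dentate gyrus among other regions, cells committed to the neuronal path present Delta-type ligands while neighbouring stem cells keep Notch active and remain undifferentiated.

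The study asked how loss of *Larp7*, a part of the complex that holds the elongation factor P-TEFb inactive, acts on formation of the dentate gyrus in mice. Single-cell RNA was counted at postnatal day 7 (P7) in 3 libraries, 1 from *Larp7* f/f;nestin-Cre mice, 1 from mice with Emx1-Cre on the same floxed alleles and 1 from wild-type mice, each from 3 to 4 gyri pooled from littermates. Bulk RNA was counted in cells of neurospheres, floating cultures of neural stem and progenitor cells that were grown from dissociated P1 gyri with bFGF and EGF. For RNA the spheres were broken up and their cells plated on Matrigel with bFGF alone in N2B27 medium for 2 days, as 2 wild-type and 3 *Larp7* knockout cultures, the latter with the genotype Larp7f/f;Emx1-Cre. The labels give no other treatment for these samples, whereas the main text of the study has growth factors withdrawn and serum added at the start of differentiation. The knockout is conditional, with floxed alleles of *Larp7* crossed to B6.Cg-Tg (Nes-cre)1Kln/J or B6.129S2-Emx1tm1(cre)Krj/J mice, and by the text of the study, though not by the labels, mice with floxed alleles served as wild-type controls. Nestin-Cre acts in neural stem and progenitor cells and what they give rise to, and Emx1-Cre in the dorsal forebrain lineage, so microglia and endothelial cells, which arise elsewhere, should keep intact alleles under both. The labels do not say whether the cultures came from separate animals. A legend of the study counts 2 wild-type and 3 knockout mice for RNA-seq of neurospheres, while its statistics section lets such numbers mean experiments or mice. The p-values therefore measure the spread between these cultures, which may be technical.

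The labels of the mutant P7 libraries conflict: the one titled for nestin carries an Emx1-Cre genotype entry and the one titled for Emx1 a nestin-Cre entry. Titles were followed, because the number of nestin-Cre cells stated in the methods of the study is larger than all barcodes of the library titled for Emx1, and "nestin-Cre" and "Emx1-Cre" refer to them throughout. The wild-type library held 28918491 unique molecular identifiers (UMIs, 1 per captured transcript) over 12876 barcodes, the nestin-Cre library 26689878 over 7177 and the Emx1-Cre library 28537738 over 6821. Cells were kept when over 500 genes were detected and mitochondrial UMIs stayed under 15%, which left 10997 wild-type, 6685 nestin-Cre and 6531 Emx1-Cre cells with medians of 1782, 3644 and 3873 UMIs. Wild-type cells were thus the shallowest. Droplets also take up free RNA, transcripts that leak from broken cells, and so microglia, which should lack most neural transcripts, are given beside each of the 10 genes as a comparison. The wild-type and nestin-Cre libraries shared 23 barcodes, the wild-type and Emx1-Cre libraries 19, and the mutant libraries 11.

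Cells were assigned to 13 marker gates. A cell entered a gate when at least 3 of that gate's 8 or 10 markers were detected and more than of any other list, and no gene of the Notch pathway is a marker. The radial glia-like (RGL) gate, for stem cells with markers such as *Hopx*, held 1042 wild-type, 872 nestin-Cre and 967 Emx1-Cre cells. The gate for neuronal intermediate progenitor cells (nIPCs), with *Eomes* and *Neurog2*, held 1064, 575 and 881 cells, and that for early neuroblasts, with *Igfbpl1*, held 2593, 1857 and 1576. The astrocyte gate held 766, 459 and 601 cells, that for oligodendrocyte precursor cells (OPCs) 282, 311 and 317, the microglia gate 587, 431 and 236, and the endothelial gate 168, 33 and 113. A gate is a range of marker counts, and many cells lay at its edge: 522 of the wild-type RGL, 574 of the nIPC and 1513 of the neuroblast cells had the fewest markers allowed or a lead of 1, beside 317, 270 and 925 in nestin-Cre and 345, 380 and 763 in Emx1-Cre. As shares these are smaller in both mutants, and the part of this in the ratios was not tested. No gate took 2936 wild-type, 413 nestin-Cre and 319 Emx1-Cre cells, whose median depths of 955, 1350 and 1453 UMIs were low, and 1226, 1124 and 1118 were tied between gates. Levels are in CPM, UMIs of a gene per 1000000 UMIs of the gate in a library, with 95% exact Poisson intervals in parentheses that cover counting error only. The neuronal gates overlap by their markers: in wild-type, nestin-Cre and Emx1-Cre, nIPC cells carried neuroblast markers at a summed 3160, 3350 and 3190 CPM beside 2500, 2330 and 2620 of their own, and immature granule neurons (185, 458 and 296 cells) at 5680, 5920 and 6200 beside 2620, 3130 and 3110. The other gates described here carried more of their own markers than of any other list. With 1 library per genotype there is no replicate check and no test, and both mutant libraries are set against the same wild-type library.

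*Larp7* itself was lower in mutant cells of the neural gates. In RGL cells it stood at 64.9 (56.7 to 74.0) CPM in wild-type, 12.1 (8.86 to 16.2) in nestin-Cre and 10.7 (7.84 to 14.4) in Emx1-Cre. In nIPC cells the values were 91.5, 13.7 and 15.7 CPM, in early neuroblasts 51.8, 9.97 and 13.4, and in astrocytes 30.1, 3.21 and 7.67. Endothelial cells held 51.2, 57.6 and 41.4 CPM. Microglia held 56.3, 35.0 and 39.2, log2 ratios of -0.69 (-1.21 to -0.17) and -0.52 (-1.14 to 0.06), smaller in size than those of -2.42 and -2.59 in RGL cells. The levels of *Larp7* do not tell one driver from the other, and 3′ tags need not lie in the deleted part of the gene. In the cultures *Larp7* was at 42.8 and 35.0 CPM in wild-type and at 4.17, 6.35 and 4.39 in knockout libraries, a log2 change of -2.97 ± 0.21 (SE) that passed the edgeR quasi-likelihood test (adjusted p = 0.0198). Every knockout library was far below both wild-type ones. The edgeR call was lost without knockout replicate 1 (adjusted p = 0.148) or knockout replicate 3 (adjusted p = 0.195), with the log2 change between -3.18 and -2.82 whichever library was left out.

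Across gates, Delta ligands and receptors were highest in different cells of the P7 gyrus. *Dll1* and *Dll3* were highest in OPC and nIPC cells, and *Dll3* also in neuroblasts. *Notch1*, *Notch2*, *Hes5* and *Hey1* each peaked in RGL cells or astrocytes, and *Hes1* in endothelial cells. Endothelial cells also held *Notch1*, at 191, 204 and 152 CPM in wild-type, nestin-Cre and Emx1-Cre, beside 187, 235 and 221 in astrocytes. The division was not complete, since nIPC and OPC cells also held *Notch1* above the level of microglia in each library, since OPC cells also held *Hes1*, *Hes5* and *Hey1* above it, and since *Jag1*, highest in endothelial cells, was also held by RGL cells. Both mutant libraries had more *Dll1* in nIPC cells and less *Hes5* in astrocytes than the wild-type library they share. The latter was past 1.5-fold in nestin-Cre, and in Emx1-Cre when cells were thinned. In RGL cells *Hes5* was lower by less than 1.5-fold in each, and by little with each cell weighted equally. Microglia differed in the same direction, by more than either gate as a ratio but by less in CPM. They held *Hes5* at 189, 66.0 and 79.5 CPM in wild-type, nestin-Cre and Emx1-Cre. Astrocytes held 1320, 726 and 904, and RGL cells 1250, 1040 and 994. The part of the microglial difference in the other gates was not tested.

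**Figure D1:**
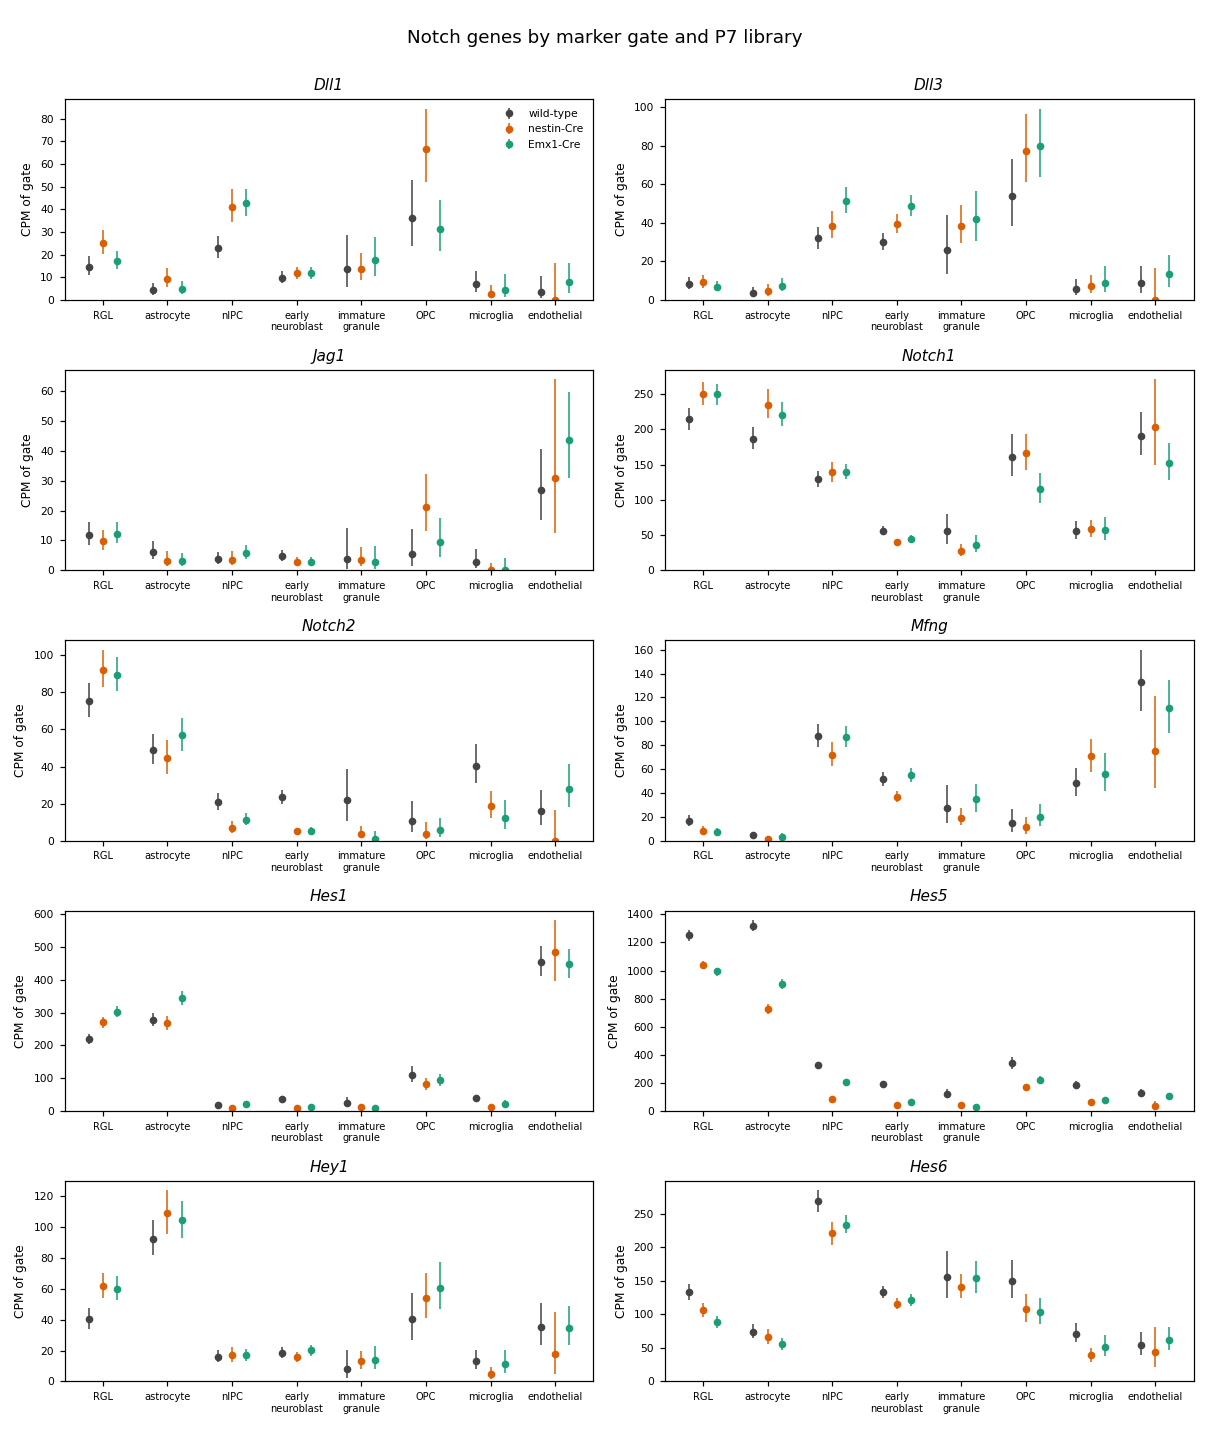
Level of each of the 10 genes in 8 marker gates at P7, with CPM of the gate on the vertical axis, 1 colour per library (wild-type, nestin-Cre, Emx1-Cre) and bars for 95% exact Poisson intervals that cover counting error only. *Hes5* reaches 1250 CPM in wild-type RGL and 1320 in wild-type astrocytes, while *Dll3* peaks in OPC cells at 53.7, 77.3 and 79.9.

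A gene was counted as different between libraries when it had at least 100 UMIs over the mutant and wild-type gate and differed at least 1.5-fold. In RGL cells 7 of the 10 genes had enough UMIs: *Dll1* and *Hey1* were past 1.5-fold, both higher, in nestin-Cre, where 10.4% of all genes with enough UMIs were past it in either direction, and *Hes6*, lower, in Emx1-Cre, where 5.91% were. In astrocytes 6 had enough UMIs, and *Hes5* was past 1.5-fold in nestin-Cre and none in Emx1-Cre, beside 7.69% and 4.87% of all genes. In nIPC cells 4 of 9 were past it in nestin-Cre (*Dll1* higher, *Notch2*, *Hes1* and *Hes5* lower) and 4 of 9 in Emx1-Cre (*Dll1* and *Dll3* higher, *Notch2* and *Hes5* lower), beside 11.3% of all genes in nestin-Cre and 6.65% in Emx1-Cre. In early neuroblasts *Notch2*, *Hes1* and *Hes5* were past it, lower, in both, and *Dll3*, higher, in Emx1-Cre, so 3 of 9 and 4 of 9 beside 19.2% and 12.3%. For RGL cells and astrocytes these are counts of 0 to 2, and in nIPC cells and neuroblasts they rest partly on genes at or below the level of microglia, as given below for each gene. The RGL counts also moved with the settings, between 1 and 2 in nestin-Cre and between 0 and 3 in Emx1-Cre, and the Emx1-Cre nIPC count fell to 2 when only cells with more than 1000 genes were kept. The Emx1-Cre astrocyte count rose from 0 to 3 with thinning before gating, and the nestin-Cre neuroblast count from 3 to 5 with equal weight per cell. Counts in these settings cover the genes with at least 100 UMIs in the main setting, also where fewer UMIs were left. In the thinned Emx1-Cre astrocytes *Hes6* had 51 wild-type and 26 mutant UMIs, too few by the rule above.

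*Dll1* (Entrez 13388, chr17:15367354-15376932 in GRCm38.p6, the build of all coordinates here) encodes a Delta ligand that activates Notch on the adjacent cell. In nIPC cells it stood at 23.1 (18.6 to 28.4) CPM in wild-type, 41.1 (34.3 to 49.0) in nestin-Cre and 42.6 (36.9 to 48.9) in Emx1-Cre, with log2 ratios to wild-type of 0.83 (0.43 to 1.23) and 0.88 (0.52 to 1.25). The mutant intervals overlap each other and neither reaches the wild-type one. In OPC cells the values were 36.3 (23.9 to 52.8), 66.6 (51.9 to 84.3) and 31.4 (21.6 to 44.1) CPM, so that OPC and nIPC cells could not be ordered in the wild-type or the Emx1-Cre library, while OPC cells were higher in nestin-Cre. In RGL cells *Dll1* was at 14.6 (10.8 to 19.2), 25.1 (20.3 to 30.7) and 17.2 (13.5 to 21.7) CPM. The nestin-Cre ratio there was past 1.5-fold at log2 0.79 (0.27 to 1.31) but fell to 0.45 (-0.71 to 1.64) when cells were thinned before gating. The Emx1-Cre ratio of 0.24 (-0.30 to 0.79) then stood at -0.81 (-2.31 to 0.60), from only 12 wild-type and 8 mutant UMIs, and at 0.12 when the gates of whole cells were kept. The intervals of the mutants overlap, and no test between them was run. Microglia, which should lack the gene, held 6.87 (3.30 to 12.6), 2.64 (0.719 to 6.76) and 4.48 (1.22 to 11.5) CPM, and wild-type RGL cells and neuroblasts did not stand above them by their intervals. Early neuroblasts held 9.77, 11.8 and 11.7 CPM.

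*Dll3* (Entrez 13389, chr7:28293555-28301785) encodes a divergent Delta protein that stays mostly inside the cell and dampens Notch in the cell that makes it. It was detected along the neuronal path, from nIPC cells at 31.9 (26.6 to 38.0), 38.5 (31.9 to 46.1) and 51.5 (45.2 to 58.4) CPM in wild-type, nestin-Cre and Emx1-Cre to early neuroblasts at 30.0 (25.8 to 34.7), 39.6 (34.9 to 44.7) and 48.7 (43.4 to 54.6). Within each library these 2 gates could not be told apart. Immature granule neurons held 25.7, 38.5 and 42.2 CPM, and OPC cells 53.7 (38.4 to 73.2), 77.3 (61.3 to 96.2) and 79.9 (63.8 to 99.0). RGL cells, at 8.15, 9.18 and 6.69 CPM, did not stand above microglia at 5.50, 7.26 and 8.96, so expression and free RNA cannot be told apart there. The log2 ratio to wild-type was 0.69 (0.37 to 1.01) in nIPC cells and 0.70 (0.43 to 0.98) in neuroblasts in Emx1-Cre, past 1.5-fold, and 0.27 (-0.10 to 0.64) and 0.40 (0.12 to 0.68) in nestin-Cre. These sides of the 1.5-fold line did not hold in every setting: Emx1-Cre fell to 0.46 in nIPC cells and 0.56 in neuroblasts, and nestin-Cre nIPC cells reached 0.74. A difference between the mutants was not tested.

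*Jag1* (Entrez 16449, chr2:137081451-137116520), a ligand of the Serrate type used by vessel walls among other tissues, was sparse. Endothelial cells held 26.8 (16.8 to 40.6) CPM in wild-type, 31.0 (12.5 to 63.9) in nestin-Cre and 43.6 (31.0 to 59.6) in Emx1-Cre, from 22, 7 and 39 UMIs. RGL cells held 11.9 (8.57 to 16.2), 9.71 (6.80 to 13.4) and 12.2 (9.07 to 16.0) CPM, above microglia in each library, which gave 4 UMIs in wild-type and 0 in each mutant, with upper limits of 2.43 and 4.13 CPM. RGL cells thus carried *Jag1* at a similar level in the 3 libraries. In nIPC cells it was at 3.77, 3.59 and 5.93 CPM. No gate reached the number of UMIs needed to call a difference between libraries, and OPC cells gave 4, 22 and 10 UMIs.

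*Notch1* (Entrez 18128, chr2:26457902-26503822), a main receptor of neural stem cells, was highest in RGL cells, at 215 (199 to 231) CPM in wild-type and 250 in each mutant library (235 to 267 in nestin-Cre and 235 to 265 in Emx1-Cre). Astrocytes held 187 (172 to 204), 235 (216 to 257) and 221 (205 to 239) CPM, and their intervals overlap those of RGL cells in every library. In nIPC cells the receptor was at 129 (118 to 141), 139 (126 to 153) and 140 (130 to 151). It was therefore lower in nIPC than in RGL cells in each library, and mutant and wild-type nIPC cells did not differ beyond counting error. Early neuroblasts, at 56.0, 39.6 and 44.7 CPM, were at or below microglia, at 56.3, 58.1 and 57.1, although microglia may express some *Notch1* of their own. Endothelial cells held 191, 204 and 152 CPM and OPC cells 161, 167 and 115.

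*Notch2* (Entrez 18129, chr3:98013538-98150367), a receptor linked to stem cell quiescence, was held more narrowly. RGL cells were at 75.4 (66.5 to 85.2), 92.3 (82.8 to 103) and 89.3 (80.5 to 98.8) CPM and astrocytes at 48.8 (41.1 to 57.5), 44.5 (36.1 to 54.3) and 56.8 (48.4 to 66.3), so that RGL cells were higher in each library. In nIPC cells it was at 20.9, 6.86 and 11.4 CPM and in neuroblasts at 23.3, 4.98 and 5.18. Microglia held 40.5 (30.9 to 52.3), 18.5 and 12.3 CPM and may express some of it themselves. The intervals of nIPC cells and neuroblasts lie below theirs in wild-type and nestin-Cre and overlap them in Emx1-Cre, and the interval of wild-type astrocytes overlaps theirs. OPC cells held 10.7, 3.86 and 5.71 CPM. The log2 ratios were -1.61 and -0.87 in nIPC cells and -2.23 and -2.17 in neuroblasts, all past 1.5-fold, although the Emx1-Cre nIPC ratio ranged from -2.35 to -0.32 over the settings. At these levels expression and free RNA cannot be told apart.

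*Mfng* (Entrez 17305, chr15:78755882-78773516) encodes a glycosyltransferase that modifies Notch and shifts which ligands it answers to. Endothelial cells held 133 (109 to 160), 75.3 (43.8 to 121) and 111 (90.0 to 135) CPM and nIPC cells 87.7 (78.8 to 97.4), 72.1 (62.9 to 82.3) and 87.0 (78.8 to 95.9), with intervals that overlap in both mutant libraries. Microglia held 48.1, 70.6 and 56.0 CPM, possibly from expression of their own, so that nIPC cells stood above them in the wild-type and Emx1-Cre libraries and overlapped them in nestin-Cre. Early neuroblasts held 51.5, 36.8 and 55.0 CPM of *Mfng*, immature granule neurons 27.7, 19.2 and 34.7, and the small Cajal-Retzius gate 84.7, 54.5 and 70.7 from 2, 25 and 10 UMIs. RGL cells held 16.3, 8.37 and 7.40 CPM and astrocytes 4.50, 1.38 and 3.49. Mutant nIPC cells differed from wild-type by log2 -0.28 (-0.53 to -0.04) in nestin-Cre and -0.01 (-0.22 to 0.20) in Emx1-Cre.

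*Hes5* (Entrez 15208, chr4:154960626-154962372), the effector most closely tied to Notch activity in neural stem cells, stood at 1250 (1210 to 1290) CPM in wild-type RGL cells, 1040 (1010 to 1070) in nestin-Cre and 994 (964 to 1020) in Emx1-Cre. Astrocytes held 1320 (1280 to 1360), 726 (690 to 762) and 904 (870 to 940) CPM. The step from RGL to nIPC cells was steep: nIPC cells held 326 (309 to 344), 85.9 (75.8 to 96.9) and 209 (196 to 223) CPM. Against microglia at 189 (167 to 213), 66.0 (53.7 to 80.3) and 79.5 (62.1 to 100), nIPC cells were higher in the wild-type and Emx1-Cre libraries, while in nestin-Cre the intervals overlap. Early neuroblasts, at 192, 40.3 and 63.5 CPM, did not stand above microglia in any library. OPC cells did in each, at 340 (299 to 384), 168 (144 to 195) and 223 (195 to 253) CPM.

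The log2 ratio of *Hes5* to wild-type was -0.27 (-0.33 to -0.20) in nestin-Cre and -0.33 (-0.39 to -0.27) in Emx1-Cre RGL cells, -0.86 (-0.95 to -0.78) and -0.54 (-0.62 to -0.47) in astrocytes, and -1.93 (-2.12 to -1.73) and -0.64 (-0.76 to -0.52) in nIPC cells. Microglia themselves gave -1.52 (-1.86 to -1.18) and -1.25 (-1.65 to -0.87), from transcripts they are not thought to make. Of wild-type microglia 176 of 587 lay at the edge of their gate, against 26 of 431 and 11 of 236 in the mutants. The source of these *Hes5* UMIs was not measured, and their part in the ratios of the other gates was not tested. With each cell weighted equally the RGL ratios were -0.05 and -0.15. In Emx1-Cre astrocytes the ratio reached -0.71 with thinning before gating and -0.63 with thinning after it, both past 1.5-fold. In RGL cells and astrocytes the level of *Hes5* was far above that of microglia in each library.

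*Hes1* (Entrez 15205, chr16:30065357-30067796), an effector that responds to Notch and to other signals, was at 219 (204 to 235), 270 (253 to 287) and 303 (286 to 320) CPM in RGL cells. Its log2 ratios there were 0.30 (0.16 to 0.44) and 0.47 (0.33 to 0.60), opposite in sign to those of *Hes5* in the same cells. They are under 1.5-fold, but reached 0.60 and 0.81, past it, when cells were thinned before gating. Astrocytes held 278, 268 and 344 CPM and endothelial cells 455 (410 to 503), 483 (396 to 582) and 448 (405 to 494). Endothelial cells, only 33 of them in nestin-Cre, were the highest of the gates described here in each library, and their level did not differ between libraries beyond counting error. OPC cells held 110, 81.1 and 93.3 CPM. In nIPC cells (19.4, 8.81 and 21.4 CPM) and neuroblasts (37.9, 10.3 and 12.1) *Hes1* was at or below microglia (38.5, 12.5 and 22.4), where expression and free RNA cannot be told apart.

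*Hey1* (Entrez 15213, chr3:8663359-8667038), a related repressor, was highest in astrocytes, at 92.7 (81.9 to 105), 109 (95.8 to 124) and 105 (93.1 to 117) CPM. RGL cells held 40.5 (34.0 to 47.8), 62.1 (54.3 to 70.6) and 60.2 (53.0 to 68.1) CPM, log2 ratios of 0.62 (0.31 to 0.93) and 0.57 (0.27 to 0.88). Wild-type RGL cells were thus lower than those of both mutants, the nestin-Cre ratio just past 1.5-fold and the Emx1-Cre ratio just under it. OPC cells held 40.3, 54.1 and 60.9 CPM. *Hey1* in nIPC cells was at 16.1, 17.0 and 16.9 CPM and in microglia at 13.1, 4.62 and 11.2, with intervals that overlap in the wild-type and Emx1-Cre libraries.

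*Hes6* (Entrez 55927, chr1:91411483-91414038), a family member that opposes *Hes1* and favours neuronal differentiation, had another layout. It was highest in nIPC cells, at 269 (253 to 286), 221 (204 to 238) and 234 (221 to 249) CPM, ahead of immature granule neurons at 156 (124 to 194), 141 (124 to 160) and 155 (132 to 180). RGL cells held 134 (122 to 146), 106 (95.8 to 117) and 88.6 (79.8 to 98.1) CPM, log2 ratios of -0.33 (-0.53 to -0.14) and -0.59 (-0.79 to -0.39). Early neuroblasts held 134, 116 and 122 CPM, OPC cells 150, 108 and 104, and astrocytes 74.4, 66.5 and 55.8, so wild-type RGL cells were level with neuroblasts. Microglia held 71.5, 38.9 and 51.5 CPM, and the RGL gate stood above them in each library.

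**Figure D2:**
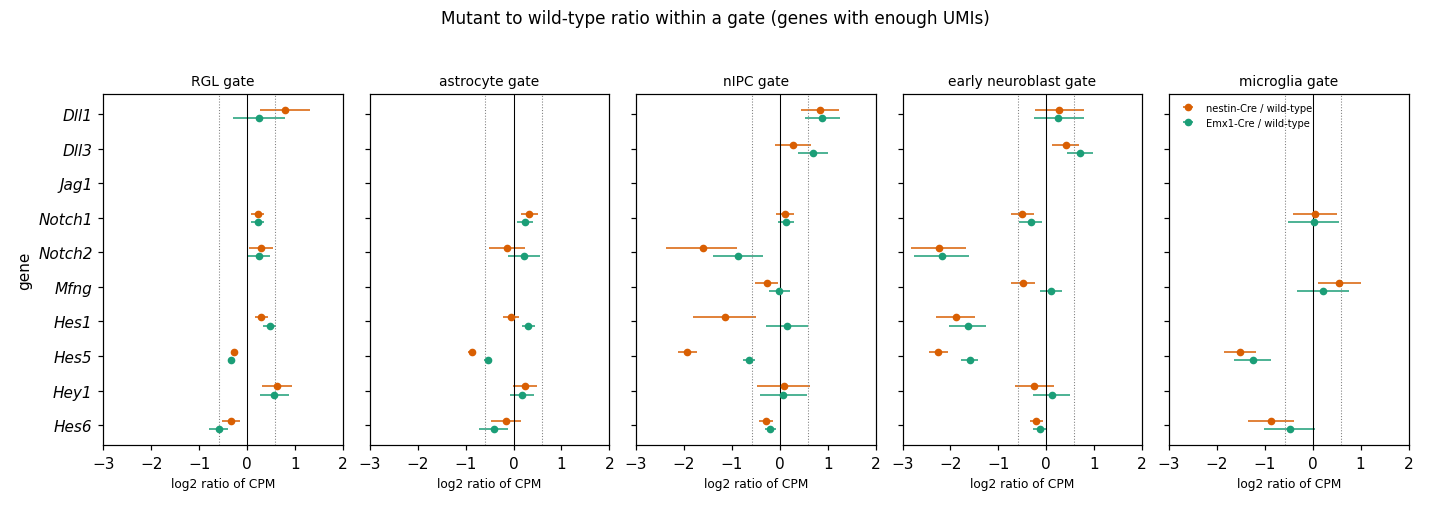
Log2 ratio of CPM, mutant over wild-type, on the horizontal axis for each gene with at least 100 UMIs in 5 gates, with bars for 95% counting intervals and dotted lines at 1.5-fold. *Dll1* in nIPC cells lies at 0.83 and 0.88, and *Hes5* lies below 0 in every gate shown, microglia included at -1.52 and -1.25.

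Shares of cells with at least 1 UMI of a Delta gene or of an effector were taken after each cell was thinned to 1500 UMIs, with 95% exact binomial intervals. The Delta share joins *Dll1* with *Dll3*, which stays mostly inside the cell, so it is not a share of sending cells. In wild-type nIPC cells *Dll1* alone was found in 3.22% (2.13 to 4.65) and *Dll3* in 5.37% (3.94 to 7.12). Thinning left out 226 wild-type, 8 nestin-Cre and 11 Emx1-Cre nIPC cells, 208, 23 and 28 RGL cells, 125, 27 and 36 astrocytes, 76, 25 and 23 OPC cells and 225, 55 and 13 microglia. *Dll1* or *Dll3* was found in 8.59% (6.78 to 10.7) of wild-type, 13.4% (10.7 to 16.5) of nestin-Cre and 14.0% (11.8 to 16.5) of Emx1-Cre nIPC cells, against 1.93%, 1.86% and 1.79% of microglia. Before thinning, at medians of 3529, 4711 and 4760 UMIs in nIPC cells and 1944, 3223 and 3233 in microglia, the shares were 16.9%, 32.0% and 36.4% of nIPC cells and 3.07%, 3.25% and 4.66% of microglia. The nIPC gate therefore held a minority of cells with a detected Delta ligand, larger in both mutants, although the nestin-Cre and wild-type intervals meet at their ends. Of RGL cells 3.12%, 4.00% and 2.56% had one after thinning (6.24%, 11.2% and 8.17% before), with thinned intervals that overlap those of microglia, and of OPC cells 13.1%, 21.3% and 16.3% (19.5%, 35.0% and 25.2% before).

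*Hes1* or *Hes5* was found in 73.6% (70.5 to 76.6) of wild-type, 70.9% (67.7 to 73.9) of nestin-Cre and 72.2% (69.2 to 75.0) of Emx1-Cre RGL cells after thinning, and in 80.7%, 84.6% and 89.1% before it at medians of 3028, 3917 and 3808 UMIs. The intervals of these joint RGL shares overlap between the libraries. Taken singly after thinning, *Hes1* was found in 23.7% (20.9 to 26.8), 30.7% (27.7 to 34.0) and 34.1% (31.0 to 37.2) of RGL cells. *Hes5* was found in 67.5% (64.2 to 70.7), 61.6% (58.2 to 64.9) and 61.7% (58.5 to 64.8). For *Hes1* both mutant intervals lie above the wild-type one, and for *Hes5* the intervals overlap. Of astrocytes 75.4%, 63.9% and 70.1% had one (85.4%, 83.4% and 89.0% before). Of nIPC cells 28.3% (25.3 to 31.5), 10.4% (8.02 to 13.2) and 17.2% (14.8 to 19.9) had one, and of microglia 19.3% (15.4 to 23.8), 5.32% (3.28 to 8.10) and 5.83% (3.14 to 9.76), where the shares before thinning were 45.2%, 24.5% and 35.5% of nIPC cells and 29.8%, 9.51% and 14.4% of microglia. The microglial share was lower in both mutants too, and its part in the lower nIPC shares was not tested. Whether fewer nIPC cells responded was therefore not tested either. A Delta ligand and an effector were found together in 2.27%, 1.59% and 2.76% of nIPC cells (7.71%, 8.35% and 14.6% before) and in 2.04%, 2.47% and 1.70% of RGL cells (4.89%, 7.57% and 6.62% before). OPC cells had both in 5.34% (2.70 to 9.35), 4.20% (2.19 to 7.21) and 2.72% (1.18 to 5.29) (10.3%, 12.5% and 11.0% before). In microglia 1 cell per library had both, and the intervals of the wild-type nIPC (1.37% to 3.52%) and microglia (0.00699% to 1.53%) shares overlap.

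Of the 43 other pathway genes, the highest in each role also split by gate. Among the other ligands, *Dner*, a neuronal transmembrane protein, was highest in OPC cells at 121, 169 and 131 CPM, whereas *Dll4* and *Jag2*, ligands of arteries, peaked in wild-type endothelial cells at 39.0 and 19.5. *Notch3* was highest in wild-type astrocytes at 49.8 CPM, with endothelial cells at 48.8, and *Lfng*, a second fringe enzyme, in astrocytes at 58.5, 77.6 and 58.2. The trafficking gene with the highest wild-type level was *Itch*, a ubiquitin ligase, at 63.4 CPM in nIPC cells, and the nuclear one *Snw1*, at 153 there. *Neurl1b*, a ubiquitin ligase of ligand uptake, was highest in nIPC cells at 30.4, 25.5 and 23.7 CPM. Of the protease genes *Psenen*, a γ-secretase subunit, ranged over the 8 gates drawn, in wild-type, from 162 CPM in immature granule neurons to 206 in RGL cells, and *Adam10*, which cleaves Notch at the cell surface, more widely from 43.2 in astrocytes to 195 in endothelial cells. *Nrarp*, a feedback target of Notch, was highest in astrocytes, at 214, 198 and 199 CPM, followed by RGL cells at 131, 148 and 146. *Hes2* was at 0 in every gate. *Dll4*, *Jag2*, *Neurl1b*, *Adam10* and *Hes2* are named here after their values were seen.

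Pathway genes past 1.5-fold were counted in 4 neural gates. In RGL cells 30 of the 43 had enough UMIs, with 3 higher (*Furin*, *Maml3*, *Tle3*) and 1 lower (*Numb*) in nestin-Cre and 2 higher (*Numbl*, *Maml3*) and 3 lower (*Neurl1b* and *Numb* among them) in Emx1-Cre, and medians of 0.16 and 0.02 on the log2 scale beside 0.06 and 0.06 over all genes. In nIPC cells 1 of 23 was higher (*Maml3*) and 1 lower (*Pofut1*) in nestin-Cre and 1 of 25 higher (*Furin*) in Emx1-Cre, with medians of -0.01 and 0.02 beside 0.03 and 0.05. In early neuroblasts 2 of 29 were higher in each mutant library (*Dner* and *Maml3* in nestin-Cre, *Maml1* and *Maml3* in Emx1-Cre) and 2 lower in nestin-Cre (*Adam10*, *Tle1*), with medians of -0.02 and -0.01 beside -0.01 and 0.05. Astrocytes had 0 of 22 past it in nestin-Cre and 1 of 23, higher, in Emx1-Cre (*Dner*), with medians of -0.01 and 0.04 beside 0.04 and 0.02. Beside the background of each gate given above, only the 5 of 30 in Emx1-Cre RGL cells stood clearly higher as a share, and each of these rests on 38 to 93 UMIs per library. The names in this paragraph were chosen after their values were seen. *Maml3*, a coactivator of the nuclear complex, was at 32.4 CPM in wild-type, 65.7 in nestin-Cre and 56.2 in Emx1-Cre neuroblasts. Microglia held it at 37.1, 53.5 and 48.2, so expression and free RNA cannot be told apart there. *Numb*, an inhibitor of Notch, was at 18.1, 11.1 and 9.07 CPM in RGL cells, against 30.9, 21.1 and 38.1 in microglia.

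The neurosphere cultures give the only comparison with replicates. Totals were 60841963 and 61187612 counts in wild-type and 59821311, 60335267 and 62474602 in knockout libraries, and 17753 genes passed the filter on low counts, all 10 of the Notch genes among them. Markers of glial and of dividing cells were the most abundant. The OPC list summed to 7180 and 7440 CPM in wild-type and 7380, 8380 and 8030 in knockout, led by *Olig1*, while the microglia list summed to at most 0.715. Members of the OPC list did not move together. *Pdgfra*, at 820 and 765 against 1110, 1270 and 1130, and *Sox10*, at 33.8 and 13.3 against 54.5, 101 and 133, were higher in knockout without overlap. So was *Olig2*, at 1350 and 1430 against 1530, 1610 and 1470. *Olig1*, the most abundant, was lower without overlap, at 3530 and 4070 against 3350, 3500 and 3380, and the rest of the list overlapped. *Pdgfra*, *Sox10* and *Olig2* are named after their values were seen. The neuroblast list, led by *Draxin* and with *Neurod1*, *Nhlh1* and *Nhlh2* at or near 0, summed to 73.6 and 116 against 59.1, 69.6 and 59.7 CPM. The immature granule neuron list, led by *Prox1* and with *Neurod2* at 0, summed to 90.4 and 135 against 82.6, 90.8 and 79.5. The RGL list, led by *Nes* and with *Tfap2c* at 0, summed to 955 and 875 against 1130, 1140 and 1010 CPM. The nIPC list summed to 91.3 and 124 against 148, 133 and 121, of which *Btg2* alone gave 61.8 and 77.2 against 90.9, 89.3 and 81.7. *Eomes* was near 0, at 0.498 and 0.597 against 0.588, 0.243 and 0.302, and *Neurog2* stood at 1.69 and 6.07 against 2.35, 1.13 and 0.636. Both overlapped between the groups, so the sum says little about nIPC cells. Lists also differed within and between groups. The 10 dividing markers, led by *Top2a*, summed to 1860 and 921 CPM in wild-type and 2400, 2270 and 2220 in knockout, so that wild-type replicate 2 stood apart. The 10 astrocyte markers, led by *Slc6a11*, summed to 2000 and 2190 against 1440, 1060 and 1390 CPM, and the 8 interneuron markers, led by *Gad1* and with *Dlx5*, *Dlx6os1* and *Slc32a1* at 0, to 15.1 and 40.7 against 9.91, 9.78 and 8.85. No marker of these lists was called by edgeR, and their part in the values below was not tested. In bulk RNA fewer cells of a type and less RNA per cell cannot be told apart.

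None of the 10 genes passed the edgeR test, which called 6 of 17753 genes (0.0338%) at an adjusted p of 0.05. At an unadjusted p under 0.05 there were 5 of the 10, beside 21.7% of all genes, and DESeq2 called 2 of the 10, beside 10.7% of its 14810 genes. The wild-type and knockout libraries did not overlap for 6 of the 10, beside 42.6% of all genes. The median log2 difference over the 10 was 0.19 and over all genes 0.01. Without wild-type replicate 2, edgeR again called 6 genes and none of the 10, and without wild-type replicate 1 it called 1905 and none of the 10, each time with the lone wild-type library assumed to vary like the knockout ones. Knockout libraries mattered too, with 0 genes called without replicate 3 and 1 without replicate 1.

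*Hes1* and *Dll3* are the 2 genes that DESeq2 called, both higher in knockout. *Hes1* stood at 10.3 and 7.80 CPM in wild-type and 14.9, 11.8 and 16.3 in knockout libraries. Every knockout library was above both wild-type ones, by log2 0.66 ± 0.19 (SE), with an edgeR adjusted p of 0.141 and a DESeq2 adjusted p of 0.0233, and a range of 0.0233 to 0.394 over the alternatives run with either tool. *Dll3* stood at 216 and 228 CPM against 242, 335 and 301. Here too the groups did not overlap, the log2 difference was 0.40 ± 0.13 (SE), and the adjusted p was 0.169 by edgeR and 0.0435 by DESeq2, with a range of 0.0435 to 0.372 over the same alternatives. Of the OPC markers *Pdgfra*, *Sox10* and *Olig2* were also higher, whereas *Olig1* was lower. The summed OPC list, of which *Olig1* is the largest part, overlapped between the groups. More OPC cells and more *Dll3* per cell cannot be told apart in bulk RNA, and the part of OPC cells was not tested.

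The other ligands leaned the same way without passing either test. *Dll1* stood at 174 and 215 CPM in wild-type and 230, 263 and 217 in knockout libraries, log2 0.28 ± 0.12 (SE), and the lowest knockout value lay just above the higher wild-type one. *Jag1* stood at 24.2 and 26.0 against 28.5, 30.4 and 29.3 CPM, log2 0.23 ± 0.09 (SE). The receptors overlapped between groups. *Notch1* was at 417 and 466 CPM against 415, 435 and 388, and *Notch2* at 67.4 and 71.6 against 73.4, 43.6 and 48.5, where knockout replicate 1 stood with the wild-type libraries. *Mfng* was scarce, at 5.25 and 2.70 against 4.94, 7.68 and 5.31 CPM.

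*Hes5* overlapped between the groups in culture, at 27.1 and 26.7 CPM in wild-type and 19.1, 27.1 and 24.8 in knockout libraries, log2 -0.18 ± 0.15 (SE) with an edgeR adjusted p of 0.528. *Hes6* stood at 74.4 and 81.2 against 70.5, 66.1 and 65.8 CPM, every knockout library below both wild-type ones, log2 -0.21 ± 0.07 (SE). *Hey1* stood at 35.2 and 35.7 against 39.5, 39.7 and 39.3 CPM, with no overlap and a log2 difference of 0.15 ± 0.08 (SE) that passed neither test. Of the effectors, *Hes1* alone was therefore called by DESeq2.

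**Figure D3:**
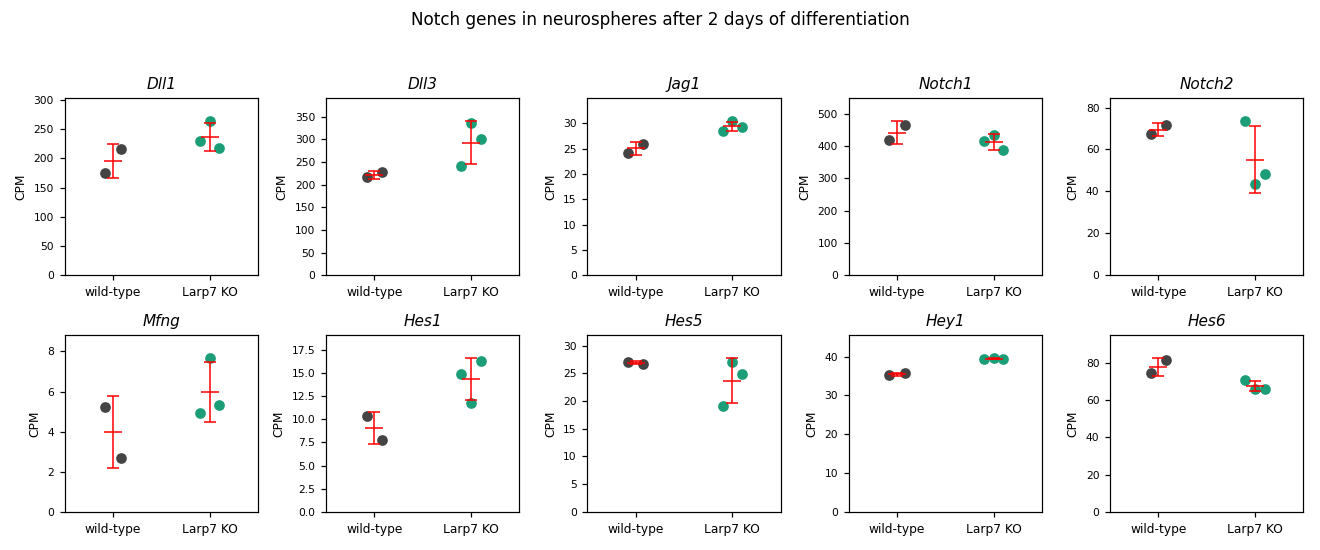
CPM of each of the 10 genes in neurospheres after 2 days of differentiation on the vertical axis, 1 point per library for 2 wild-type and 3 *Larp7* knockout (KO) cultures, with red lines for the mean and SD. *Hes1* lies at 10.3 and 7.80 in wild-type and 11.8 to 16.3 in knockout, without overlap, and *Hes5* overlaps.

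Of the 43 other pathway genes 41 were tested in culture and edgeR called none, with 10 at an unadjusted p under 0.05 (2 higher and 8 lower in knockout), 20 whose groups did not overlap and 3 called by DESeq2, beside 21.7%, 42.6% and 10.7% of all genes. These shares are near or below the background. Their median log2 difference was -0.07. The 3 called by DESeq2 were lower in knockout. *Nrarp* stood at 94.1 and 111 CPM in wild-type and 79.4, 67.6 and 75.6 in knockout, a log2 difference of -0.47 ± 0.12 (SE) and an adjusted p of 0.0047 by DESeq2. By edgeR its adjusted p was 0.107, and 0.0254 without wild-type replicate 1, in a range of 0.0047 to 0.347 over the alternatives. *Psen2*, a catalytic γ-secretase subunit, stood at 7.52 and 8.81 against 5.43, 5.69 and 5.71 CPM (log2 -0.54, DESeq2 adjusted p = 0.0453, range 0.0453 to 0.372), and *Pofut1*, which puts fucose on Notch, at 65.5 and 63.7 against 53.7, 52.6 and 54.4 (log2 -0.27, DESeq2 adjusted p = 0.0273, range 0.0273 to 0.356). In the same libraries the Notch target *Nrarp* was thus lower while *Hes1* was higher. At P7 the log2 ratios of *Nrarp* were 0.17 (-0.01 to 0.35) and 0.16 (-0.02 to 0.34) in RGL cells, -0.12 and -0.11 in astrocytes, -0.54 (-0.97 to -0.12) and -0.18 (-0.52 to 0.17) in nIPC cells and -0.49 (-0.84 to -0.15) and -0.50 (-0.85 to -0.15) in early neuroblasts, none past 1.5-fold. Neuroblasts held it at 27.0, 19.2 and 19.1 CPM, near microglia at 24.1, 11.2 and 20.2.

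The effector *Hes5* also was the only member with the RBPJ motif in the promoter windows searched. RBPJ binds the letters GTGGGAA, and this motif was searched on both strands (TTCCCAC on the other) from 250 bases before to 50 after each listed start in RefSeq promoters of GRCm38.p6. It was found in 2097 of 32851 windows (6.38%). Of the 10 genes 7 had 9 windows, and *Hes5* held the motif at 2 positions. *Hes1*, *Hey1* and *Mfng* had no entry. The *Hes5* window lies at chr4:154960673-154960972 on the plus strand, inside the annotated span of the gene near its 5′ end, and the table used does not give exons. Both matches are printed below with 10 bases on either side, the motif in capitals, as they begin 226 and 83 bases before the listed start, at chr4:154960687-154960713 and chr4:154960830-154960856. A match is a string of letters and not a measured binding site.
*Hes5* first match: ggcgagcgcgTTCCCACagcccggaca
*Hes5* second match: gccgccgagtGTGGGAAcggccgcggc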

How the data were processed

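The deposited P7 files hold UMI counts as whole numbers for each gene in each barcode, which the authors obtained with Cell Ranger and did not normalize; methods and file headers name different versions. The neurosphere values are whole-number counts per gene deposited by the authors, per the methods from Minimap2 against the Ensembl mouse transcriptome, whereas the labels list mm10 and featureCounts; the sources used here do not give strand handling. Of 10 count columns 5 were used and 5 were not used, because their names match no sample. The genes, markers and pathway list were chosen with earlier results of these data known. UMIs were summed per gate and library; ratios have 95% conditional binomial intervals. Doublets were kept, and leaving out the 6% of cells with most UMIs was an alternative, as were more than 1000 genes per cell, 1 marker more, thinning to 1500 UMIs, equal weight per cell and, chosen after seeing the data, a lead of 2 markers and thinning with the gates of whole cells kept. Counts were tested with edgeR 4.0.16 (R 4.3.3, TMM, filterByExpr, quasi-likelihood test, Benjamini-Hochberg); alternatives were DESeq2 1.42.0, no filter, a replicate block and leaving out each library. Entrez identifiers got symbols from GRCm38.p6 for 39373 of 40814 genes. Libraries of the same group differed by more than sampling noise, with a chi-square over its degrees of freedom of 20.1 to 66.1. Named genes were the 10 members, *Larp7*, the pathway genes highest per role at P7 or past a neurosphere test, and the 3 genes most like each member; others are said to be named after their values were seen, and some are not reported here. Python 3.11.15, numpy 2.4.6, scipy 1.17.1, pandas 2.3.3 and matplotlib 3.10.9 were used. The count test, the thinning and the ratio intervals were tested on simulated data; the gating was not.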

Additional observations from a re-analysis of the deposited data

How the results depend on the processing

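The number of neurosphere genes called was 6 with edgeR, 1586 with DESeq2, 3 without a filter on low counts and 0 with the replicate block. Leaving out 1 library gave between 0 and 1905 genes, and 0 of the 10 Notch genes each time. DESeq2 called 2 of the 10. With the replicate block *Larp7* had a log2 change of -2.90 and an edgeR adjusted p of 0.344. No other named gene lost a call, but the 10 Notch genes and the 41 other pathway genes tested had none to lose. The numbers in the titles did not pair the libraries (correlations of deviations -0.005 and 0.093). At P7 the count of genes past 1.5-fold in RGL cells was 2 in nestin-Cre, and 1 with more than 1000 genes per cell, without the 6% of cells with most UMIs or with thinning after gating. In Emx1-Cre RGL cells it was 1, and 0 with 1 marker more or without that 6%. It was 2 with thinning before gating (counting *Dll1*, from 12 wild-type and 8 mutant UMIs) or equal weight per cell. It was 3 with thinning after gating or a lead of 2 markers. In Emx1-Cre astrocytes it was 0, 3 with thinning before gating (counting *Hes6*, from 51 wild-type and 26 mutant UMIs) and 1 with thinning after it. In Emx1-Cre nIPC cells it was 4, and 2 with more than 1000 genes or a lead of 2 markers. In nestin-Cre neuroblasts it was 3, and 5 with equal weight. Counts under each setting cover the genes with at least 100 UMIs in the main setting, also where thinning left them fewer. The cause of these shifts was not tested. Of 434 single ratios under these 7 settings 351 stayed inside the main counting interval, and none of those past 1.5-fold changed sign. Of the 62 ratios behind them, 18 under 1.5-fold took the other sign in at least 1 setting, among them *Dll1* in Emx1-Cre RGL cells (with thinning before gating), *Hes1* in Emx1-Cre nIPC cells (0.14, and -1.27 without the top 6%) and *Notch2* in RGL cells (0.29 and 0.24, and as low as -0.01 and -0.05). *Dll1* in nIPC cells ranged from 0.62 to 1.63 in nestin-Cre and from 0.82 to 1.55 in Emx1-Cre, and *Hes5* there from -2.24 to -1.66 and from -1.16 to -0.33. *Hes5* in RGL cells ranged from -0.31 to -0.05 and from -0.40 to -0.15. The highest wild-type gate was the same for all 10 genes except under thinning before gating (*Hes5*, then in RGL cells) and without the top 6% (*Mfng*, then in nIPC cells), with 9 each. Depth limits *Jag1* in every gate, and *Dll1* outside nIPC cells, RGL cells and neuroblasts.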

Other observations

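Within a gate, levels of ligand and effector differed by dividing markers. Cells with at least 2 of the 9 dividing markers found were set beside those with none, in RGL cells 336 against 504 in wild-type, 214 against 489 in nestin-Cre and 272 against 533 in Emx1-Cre. *Dll1* was at 20.9 (14.2 to 29.7), 41.1 (30.7 to 53.9) and 30.8 (22.9 to 40.4) CPM in dividing RGL cells and at 7.90 (3.94 to 14.1), 10.8 (6.51 to 16.9) and 6.44 (3.33 to 11.2) in the others. *Hes5* ran the other way, at 978, 495 and 679 CPM in dividing and 1550, 1420 and 1290 in the other RGL cells, and *Hes1* likewise at 181, 152 and 179 against 249, 358 and 413. The lower *Hes5* of mutant RGL cells was thus wider among dividing cells, although depth differed too (medians of 3993, 5499 and 5546 UMIs against 2810, 3544 and 3441) and its part was not tested. In nIPC cells *Dll3* was lower in dividing cells, at 25.5, 31.9 and 42.1 CPM, than in the others, at 60.8, 61.3 and 75.6. *Dll1* there leaned the other way, at 26.2 (20.7 to 32.7), 42.5 (34.3 to 52.2) and 48.5 (41.4 to 56.4) CPM in dividing cells and 13.5 (5.84 to 26.6), 35.0 (20.0 to 56.9) and 15.9 (8.23 to 27.8) in the others. For *Dll1* the intervals were apart in Emx1-Cre alone.

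The genes whose levels ran most like each member were found by Pearson correlation of log2(CPM + 1) over 24 points, the gates with at least 50 cells in the 3 libraries, among 13422 genes. Points of a library share its depth and free RNA, and the same gates recur in each library. *Hes5* ran most like *Dbi* (0.981), *Psph* (0.964) and *Dio2* (0.956). *Hey1* ran most like *Nrarp* (0.967), *Tomm5* (0.919) and *Pcdhgc3* (0.917), the first of which is a Notch target. *Hes1* was followed by *Cav1* (0.973), *Il17rd* (0.952) and *Cat* (0.949), and *Hes6* by *Hmgb3* (0.941), *Psma4* (0.94) and *Upf3b* (0.931). Among ligands the closest were *Lima1* (0.877), *Zfp740* (0.873) and *Ifit2* (0.873) for *Dll1*, *Epb41* (0.948), *Myt1* (0.931) and *Ick* (0.915) for *Dll3* and *Dnajc10* (0.884), *Gnb4* (0.875) and *Ptprg* (0.872) for *Jag1*. *Notch1* ran most like *Pdlim5* (0.934), *Myo10* (0.931) and *Afap1l2* (0.929) and *Notch2* like *Proca1* (0.899), *Fmo1* (0.89) and *Slc9a3r1* (0.887), while *Mfng* lay nearest the ribosomal protein genes *Rpl6* (0.936) and *Rps3* (0.93).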
